A study of Canis lupus familiaris with 34 samples.

Results

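Within 5 dog breeds that had both metastasising (M) and non-metastasising (NM) primary cutaneous mast cell tumours (MCTs), most keratinocyte, fibroblast and immediate early genes had lower, and most lymphocyte genes higher, levels in the M MCTs, but no gene passed a test adjusted over all genes. Of the lymphocyte genes, 12 of 13 of T and NK cells and 8 of 10 of B and plasma cells were higher. With age as a covariate these counts were 8 and 6. The 5 breeds are Boxer, Cross-breed, Golden Retriever, Staffordshire Bull Terrier and Whippet, that is, every breed label other than Labrador Retriever in both groups. Cross-breed is not a single breed, since the paper describes a variety of cross breeds. Breed was therefore not matched among the 3 M and 3 NM MCTs of that block. Together the 5 labels contributed 18 of the 34 tumours of the series, 7 M and 11 NM, each from a different pet dog. Breed was kept as a block so that each M MCT was set against NM MCTs of its own breed label. The Cross-breeds had 3 M and 3 NM MCTs, the Boxers and the Golden Retrievers 1 M and 3 NM each, and the Staffordshire Bull Terriers and the Whippets 1 M and 1 NM each. A difference within any breed but the Cross-breeds therefore rests on 1 M MCT. Metastasis was proven in every dog of the M group and led to its death or euthanasia, and some M dogs may have had chemotherapy or radiotherapy. In the NM group no adjuvant therapy was given, no metastasis was seen and every dog survived the follow-up. RNA was taken from formalin-fixed, paraffin-embedded (FFPE) biopsies and hybridised to canine gene arrays, which gave 1 log2 value per Transcript cluster and tumour, so that a difference of 1 is a 2-fold difference in signal.

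A cutaneous MCT arises from mast cells, the tissue leukocytes that store histamine and proteases in granules and depend on the receptor KIT. A biopsy also holds dermis, vessels, hair follicles, glands and, where it reaches the surface, epidermis, along with lymphocytes, eosinophils and macrophages that mast cells draw in. In such bulk RNA, fewer cells of a type and less RNA per cell cannot be told apart. The paper saw no apparent gross difference in epidermal content between its M and NM biopsies. It called unclear whether its keratin differences lie in keratinocytes, mast cells or both. The table's median level was 1.84, and the mast cell markers KIT and CPA3 reached well above it in part of both groups. KIT had a lowest, median and highest level of 2.23, 2.88 and 4.88 in the M MCTs, against 1.94, 2.23 and 4.28 in the NM MCTs, and the protease gene CPA3 2.2 to 8.46 (median 4.11) in the M MCTs, against 1.71 to 8.11 (median 2.97) in the NM MCTs. The 7 M MCTs correlated with the other 17 tumours at a median of 0.722 to 0.899 over the tested clusters and the 11 NM MCTs at 0.709 to 0.888. The 4 arrays below 0.8 were the M MCTs of the Boxer and the Whippet, an NM MCT of a Boxer and an NM MCT of a Cross-breed.

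The dogs differed in age. Those with M MCTs were 8 to 15 years old, with a mean of 10.3 ± 2.29 years (SD, n = 7), against 3 to 11 years and a mean of 5.91 ± 2.51 years (SD, n = 11) for those with NM MCTs. Within breeds the difference was 3.69 years (two-sided exact permutation test of the labels within breeds, 1280 arrangements, p = 0.0109), and it kept its direction without any 1 of the breeds, at 3.36 to 4.3 years, with p = 0.0563 in the exact test without the Boxers. Sex and neutering were also unevenly spread, with 6 females and 1 male of which 6 were neutered in the M group, and 5 females and 6 males of which 6 were neutered in the NM group. The paper also reports that the FFPE specimens of the NM MCTs were older on average than those of the M MCTs in its series. It found no correlation of specimen age with RNA integrity. Specimen ages of these 18 tumours were not used here. The ages of the dogs in the groups did not overlap in 4 of the 5 breeds, as the plot of ages by breed shows.

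**Figure D1:**
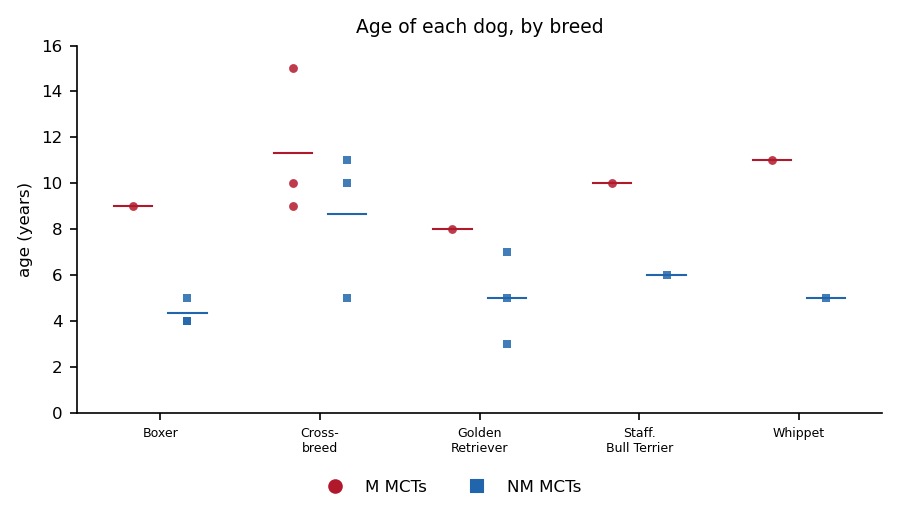
Age in years (vertical axis) of each dog with an M MCT (circles) or an NM MCT (squares) in the 5 breeds (horizontal axis), with short lines at the means of each breed and group. The dog with the M MCT was older than every dog with an NM MCT in the Boxers (9 against 4 to 5 years), Golden Retrievers (8 against 3 to 7), Staffordshire Bull Terriers (10 against 6) and Whippets (11 against 5), and the Cross-breeds overlapped (9 to 15 against 5 to 11).

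The first question was whether metastasis came with a difference in gene expression once the breed label was held fixed. Of 19246 Transcript clusters tested with limma, 0 had an adjusted p under 0.05. At an unadjusted p under 0.05 there were 708 clusters, against 962.3 expected if no cluster differed, 384 lower (2% of those tested) and 324 higher (1.68%) in the M MCTs; with array weights there were 805 lower and 513 higher, more than expected. Among the 10471 genes with 1 symbol, 265 were lower (2.53%) and 162 higher (1.55%) at this threshold. These shares are the background for every list count below. The value after ± is the SE of a difference. All p-values of single genes below are these unadjusted limma values with breed as a block, so none of the named genes passed the adjusted test. Group accounted for 3.69% of the variation between expression profiles within breeds (exact permutation test of labels within breeds, p = 0.493). Breed accounted for 37.1% of the variation over the same 3849 most variable clusters. Breed has more levels than group and so takes a larger share even with no effect, and its share was not tested. The paper saw no association of expression profile with breed when it clustered all its tumours.

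Signs were less even. The difference was negative for 56.2% of the genes with 1 symbol, and 661 genes (6.31%) were lower in the M MCTs in all 5 breeds, against 175 (1.67%) that were higher in all 5. The sign in the Boxers and in the Whippets rests on M MCTs of low median correlation with the other tumours, 0.722 and 0.767. The gene ADGRG5, an adhesion G protein-coupled receptor, was the 1 gene (0.00955%) whose 7 M MCTs all lay above the 11 NM MCTs, and 0 genes had all M MCTs below all NM MCTs. It was singled out for this after its values were seen. ADGRG5 had 2.33 to 2.84 (median 2.52) in the M MCTs, against 1.95 to 2.32 (median 2.2) in the NM MCTs, a difference of 0.36 ± 0.09 (p = 0.00178), with the M and the NM Whippet at 2.33 and 2.32.

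Among the 12 genes with the smallest p that were lower in the M MCTs by at least 0.5, the first was TACC2, a centrosome and microtubule associated protein gene, with 2.21 to 2.43 (median 2.32) in the M MCTs, against 2.35 to 4.65 (median 3) in the NM MCTs. The highest M MCT lay below 10 of the 11 NM MCTs, and the difference was -0.82 ± 0.22 (p = 0.0021), 1.76-fold, negative in all 5 breeds. LMNA, which encodes the nuclear lamins A and C, had 3.42 to 5.1 (median 4.27) in the M MCTs, against 4.02 to 6.37 (median 5.38) in the NM MCTs, and differed by -0.88 ± 0.25 (p = 0.00326). Its differences ran from -0.16 in the Boxers to -1.97 in the Whippets, again negative in all 5 breeds. EGR1, an immediate early transcription factor gene, had the largest difference of the 12, -1.53 ± 0.5 (p = 0.00864), 2.88-fold, with 2.27 to 4.66 (median 3.24) in the M MCTs, against 3.17 to 6.62 (median 5.43) in the NM MCTs. For EGR1, 8 of the 11 NM MCTs lay above the highest M MCT.

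The other 9 genes of this set differed by -0.54 to -1.15. XG, a blood group antigen gene in humans, had 4.26 to 6.29 (median 5.88) in the M MCTs, against 5.66 to 8.22 (median 6.82) in the NM MCTs, and 8 of the 11 NM MCTs lay above the highest M MCT. FBLN1, which encodes the matrix protein fibulin 1, differed by -1.02 ± 0.33 (p = 0.00826). ANXA8L1 of the annexins differed by -0.81 ± 0.23 (p = 0.00362). The epidermal genes CALML5, a calmodulin-like protein of differentiating keratinocytes, and ASPRV1, a protease of the stratum corneum, differed by -0.86 ± 0.26 (p = 0.00454) and -0.63 ± 0.2 (p = 0.00719). The remaining 4 were the transcription factor gene NFIX (-0.74 ± 0.23, p = 0.00622), the junction protein gene AMOTL1 (-0.63 ± 0.19, p = 0.00424), the kinase gene STK25 (-0.62 ± 0.2, p = 0.00742) and RND3 (-0.54 ± 0.17, p = 0.00688). Of the 12 genes, 10 were lower in all 5 breeds; the exceptions were AMOTL1, level in the Cross-breeds, and ASPRV1, at 0.08 in the Staffordshire Bull Terriers.

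**Figure D2:**
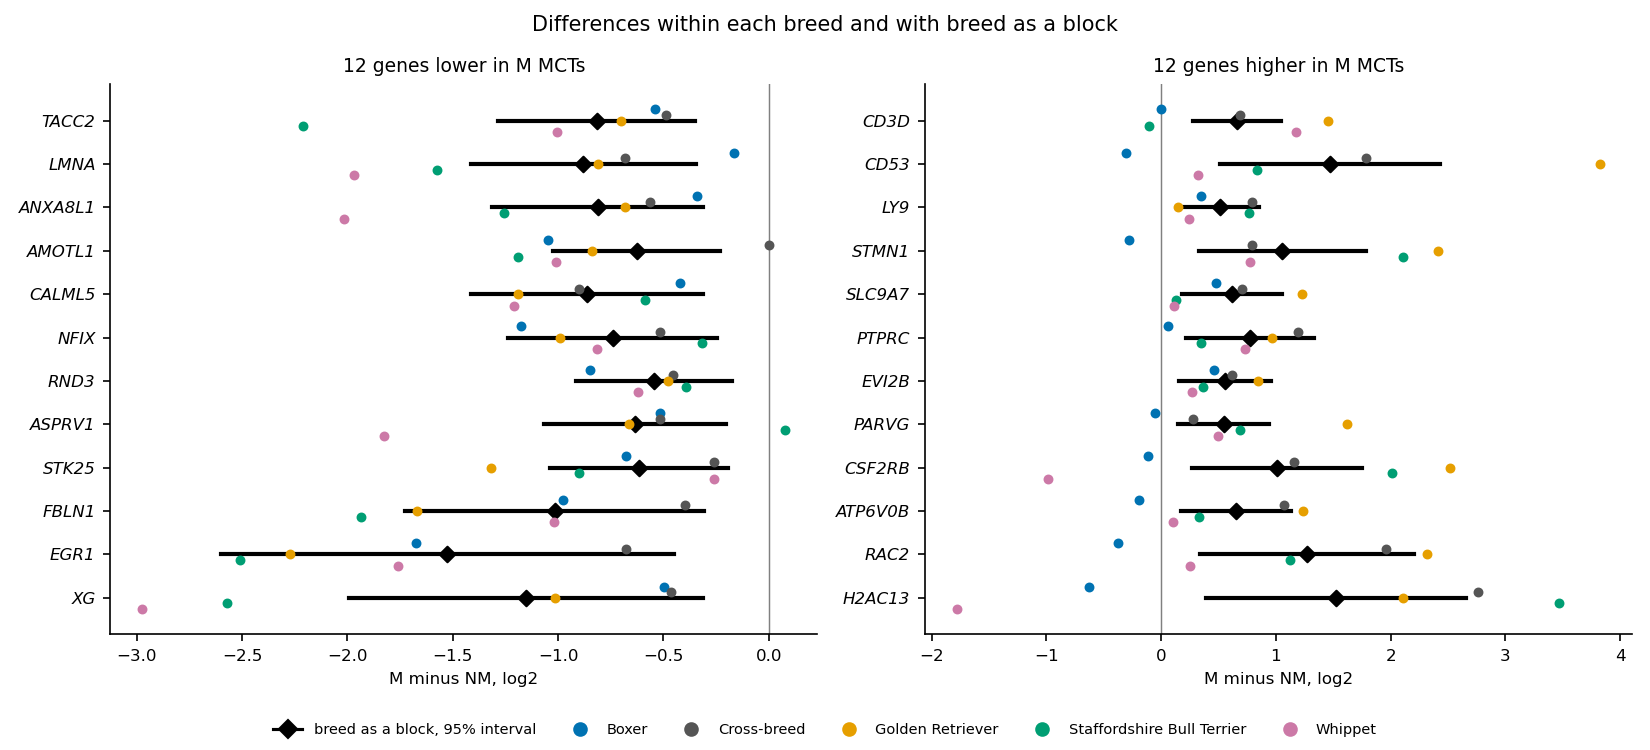
Difference in log2 level between M and NM MCTs (horizontal axis) for the 12 genes lower (left) and the 12 higher (right) in the M MCTs with the smallest p, from top to bottom. Black diamonds are differences with breed as a block and bars their 95% intervals; coloured points are the 5 breeds, nearly all below 0 on the left and mostly above 0 on the right, where the Boxers lie at or below 0 for 8 genes.

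Among the 12 genes with the smallest p that were higher in the M MCTs by at least 0.5, the first was CD3D. CD3D, a chain of the T cell receptor complex, had 1.45 to 2.97 (median 2.07) in the M MCTs, against 1.19 to 1.71 (median 1.48) in the NM MCTs, and differed by 0.66 ± 0.18 (p = 0.00229). The 5 M MCTs above every NM MCT were those of the 3 Cross-breed dogs, the Golden Retriever and the Whippet, and all 11 NM MCTs lay below the table's median of 1.84. CD53, a tetraspanin of the leukocyte membrane, had 1.51 to 5.73 (median 2.69) in the M MCTs, against 1.4 to 2.5 (median 1.83) in the NM MCTs. It differed by 1.47 ± 0.45 (p = 0.00518), 2.78-fold, from -0.31 in the Boxers to 3.82 in the Golden Retrievers, whose M MCT had the highest value. PTPRC, the pan-leukocyte phosphatase CD45, had 1.79 to 4.15 (median 2.75) in the M MCTs, against 1.62 to 2.34 (median 1.78) in the NM MCTs, differing by 0.77 ± 0.26 (p = 0.00971).

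RAC2, a small GTPase of blood cells, had 3.63 to 6.71 (median 5.33) in the M MCTs, against 2.96 to 5.36 (median 3.86) in the NM MCTs and differed by 1.27 ± 0.44 (p = 0.0111). Also in this set were LY9 (0.52 ± 0.16, p = 0.00586), EVI2B (0.55 ± 0.19, p = 0.0098), PARVG (0.54 ± 0.19, p = 0.0106) and CSF2RB, the shared beta chain of the receptors for interleukin 3, interleukin 5 and GM-CSF (1.01 ± 0.35, p = 0.0108). CSF2RB was higher by 2.52 in the Golden Retrievers and 2.01 in the Staffordshire Bull Terriers, but stood at -0.99 in the Whippets. STMN1, the microtubule destabiliser stathmin, which is abundant in dividing cells, had 1.95 to 5.3 (median 3.22) in the M MCTs, against 1.83 to 3.65 (median 2.05) in the NM MCTs and differed by 1.06 ± 0.34 (p = 0.00751). The histone gene H2AC13 had the largest difference of the 12, 1.52 ± 0.53 (p = 0.0116), with values from -1.78 in the Whippets to 3.47 in the Staffordshire Bull Terriers; histone genes are near-identical copies, so its signal may be shared among them. SLC9A7, a sodium-proton exchanger gene, and ATP6V0B, a subunit gene of the vacuolar proton pump, differed by 0.62 ± 0.2 (p = 0.00882) and 0.65 ± 0.22 (p = 0.011). Only 4 of these 12 genes were higher in all 5 breeds, LY9, SLC9A7, PTPRC and EVI2B. With age as a covariate 5 of these 12, and 10 of the 12 lower genes above, were still at an unadjusted p under 0.05.

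**Figure D3:**
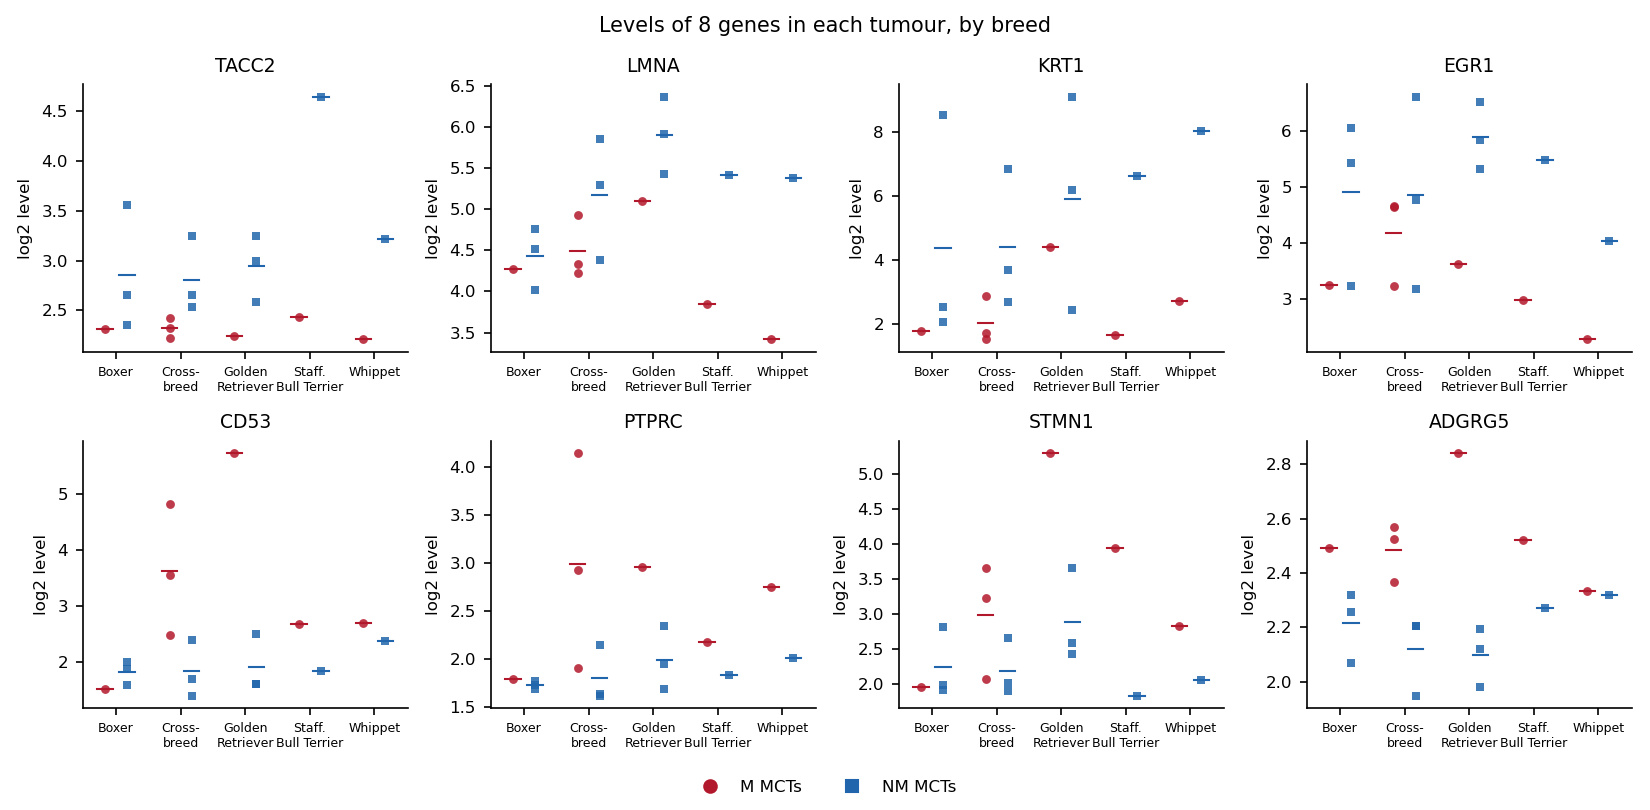
Level on the log2 scale (vertical axis) of 8 genes in each M MCT (circles) and NM MCT (squares) of the 5 breeds (horizontal axis), with short lines at the means of each breed and group. TACC2 lies low in all 7 M MCTs and KRT1 in all but the Golden Retriever (4.42), while both spread widely in the NM MCTs, CD53 and PTPRC are highest in M MCTs of the Golden Retriever or a Cross-breed, and only ADGRG5 has no overlap.

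Genes of the epidermis made up the genes that were lower in every breed by the widest margin. Keratins are the intermediate filaments of keratinocytes, and desmosomes are the junctions that rivet these cells to each other. The 8 genes of 1 symbol with the largest smallest within-breed difference were PKP1, KRT1, SFN, KRT5, DSP, SBSN, KRTDAP and CST6; the agreement of the breeds is what chose them. KRT1, the keratin of the suprabasal layers, had 1.52 to 4.42 (median 1.78) in the M MCTs, against 2.08 to 9.11 (median 6.19) in the NM MCTs, a difference of -2.94 ± 1.07 (p = 0.0152), 7.69-fold. The 6 NM MCTs above the highest M MCT were 1 Boxer, 1 Cross-breed, 2 Golden Retriever, 1 Staffordshire Bull Terrier and 1 Whippet tumour, and the other NM MCTs lay among the M MCTs. PKP1, the desmosome plaque protein plakophilin 1, had 2.5 to 2.75 (median 2.65) in the M MCTs, against 2.42 to 5.91 (median 4.06) in the NM MCTs. All 7 M MCTs lay below 10 of the 11 NM MCTs, and the remaining NM MCT, of a Golden Retriever, lay below them all, with a difference of -1.47 ± 0.53 (p = 0.0141). DSP, the desmosome linker desmoplakin, had 1.52 to 2.52 (median 1.85) in the M MCTs, against 1.56 to 6.71 (median 3.99) in the NM MCTs and differed by -1.75 ± 0.74 (p = 0.0319).

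The keratinocyte lists as a whole showed the same shape. Of 24 tested genes of suprabasal and cornified keratinocytes, 12 were lower in M MCTs and 0 higher by the unadjusted threshold, with a median difference of -0.61, against 2.53% lower and a median of -0.02 over all genes with 1 symbol. SFN (-1.77 ± 0.65, p = 0.0154), KRT10 (-2.46 ± 1.13, p = 0.0471), KRTDAP (-2.14 ± 0.94, p = 0.0394) and SBSN (-1.72 ± 0.74, p = 0.036) were among them. Of 14 basal keratinocyte genes 5 were lower and 0 higher, with a median of -0.37. They were KRT5, the basal layer keratin (-2.17 ± 0.88, p = 0.0269), KRT15 (-1.77 ± 0.75, p = 0.0323), KRT6A (-1.75 ± 0.81, p = 0.0474), KRT17 (-1.03 ± 0.38, p = 0.0169) and the hemidesmosome integrin ITGB4 (-0.57 ± 0.26, p = 0.0423). Of 19 genes of desmosomes and epithelial junctions 4 were lower and 0 higher, with a median of -0.47, namely PKP1, DSP, PERP (-1.7 ± 0.59, p = 0.0118) and PKP3 (-0.47 ± 0.17, p = 0.0165). Many of these called genes, KRT1, KRT10, SFN, KRT5, PKP1 and DSP among them, are on the study's over-2-fold list. That list was drawn from tumours that include these 18, so these calls are no independent evidence. Without the genes of that list, 11 of the 47 remaining keratinocyte genes were lower (23.4%) and 0 higher, with a median of -0.46. When each tumour or breed was left out in turn, 5 to 15 suprabasal genes were lower. The count was 5 without NM replicate 5, a Cross-breed, without the M or the NM Whippet, or without the Cross-breeds. Basal genes ranged from 0 to 6 (0 without the M or the NM Whippet). Desmosome genes ranged from 2 to 9 (2 without the M or the NM Whippet, or without the Cross-breeds). The Whippets had 1 M and 1 NM MCT, so leaving out either removes the same contrast. Without the 4 arrays of low correlation, chosen after seeing the data, 1 suprabasal, 0 basal and 1 desmosome gene were lower at the threshold, with medians of -0.42, -0.33 and -0.58. A mean level over the suprabasal list ran from 2.15 to 2.68 in the M MCTs, against 2.32 to 4.55 in the NM MCTs, of which 6 lay above every M MCT.

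For skin appendages, 28.6% of the gland genes and 4% of the hair genes were lower at the threshold, against 2.53% of all genes. Of 14 genes of sebaceous and sweat glands 4 were lower and 0 higher, SCD, a fatty acid desaturase of sebocytes (-1.42 ± 0.63, p = 0.0411), KRT7 (-0.55 ± 0.23, p = 0.0296), FA2H (-0.59 ± 0.26, p = 0.0361) and MGST1 (-0.37 ± 0.16, p = 0.0355). Of 25 genes of the hair follicle and shaft 1 was lower, the keratin-associated protein gene KRTAP8-1 (-1.18 ± 0.52, p = 0.0413), although 22 of the 25 differences were negative and the median was -0.46. KRTAP3-1 had 1.59 to 2.61 (median 1.84) in the M MCTs, against 1.58 to 7.48 (median 3.1) in the NM MCTs, with p = 0.0739. Of the 14 gland genes 0 were lower without the Golden Retriever M MCT, without the M or the NM Whippet, or without the Cross-breeds. With age as a covariate 2 of the gland genes were lower. Of the 25 hair genes 4 were lower with age as a covariate, with a median of -0.76.

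A keratinocyte score, the mean z-score of 47 genes of the 3 keratinocyte lists that leaves out the genes which the study lists as over 2-fold, was computed for each tumour. It was -0.46 ± 0.22 (SD, n = 7) in the M MCTs, from -0.81 to -0.16, and 0.29 ± 0.78 (SD, n = 11) in the NM MCTs, from -0.84 to 1.61, and its mean was lower in the M MCTs in all 5 breeds. With the score as a covariate 252 clusters were lower and 282 higher at an unadjusted p under 0.05, and the median of the suprabasal list became -0.07. Genes of that list are part of the score, so a move of its median towards 0 was built in. Nothing is read from that move. With the score TACC2 differed by -0.52 (p = 0.0293) and LMNA by -0.6 (p = 0.04), while EGR1 differed by -0.93 (p = 0.0976). With age as a covariate the suprabasal median was -0.71 and 5 of its 24 genes were lower at this threshold, with 2 of 14 basal and 2 of 19 desmosome genes.

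Of 27 genes of fibroblasts and matrix, 26 had a negative difference, against 56.2% of all genes with 1 symbol, and the median was -0.58. At an unadjusted p under 0.05, 4 were lower, against 2.53% of all genes, and 0 higher. Those 4 were FBLN1, given above, CLEC3B, the plasminogen-binding protein tetranectin (-1.24 ± 0.46, p = 0.0167), TNXB, the matrix protein tenascin X (-0.87 ± 0.35, p = 0.0263), and PI16 (-0.58 ± 0.26, p = 0.043). FBLN1 had 2.15 to 4.44 (median 3.25) in the M MCTs, against 2.91 to 5.61 (median 4.28) in the NM MCTs. The main collagen of the dermis, COL1A1, had 3.65 to 9.35 (median 7.41) in the M MCTs, against 4.66 to 10.93 (median 8.05) in the NM MCTs, with p = 0.151, and the leucine-rich proteoglycan DCN 1.83 to 6.5 (median 2.93) in the M MCTs, against 1.8 to 7.75 (median 5.8) in the NM MCTs, with p = 0.111. The mean level of the list was lower in the M MCTs in 4 of the 5 breeds, each with 1 M MCT, but not in the Cross-breeds. There it was 5.33, 3.8 and 4.2 in the M MCTs, against 3.33, 4.68 and 5.27 in the NM MCTs. Left-out tumours or breeds gave 2 to 10 lower genes, with 2 left without NM replicate 5, a Cross-breed, and 7 found without the Cross-breeds. The exception in sign was SFRP2, a secreted Wnt antagonist, at 0.85 with p = 0.12. With the keratinocyte score as a covariate the median of the list was -0.32 and 0 of its genes were lower at the threshold, and with age as a covariate it was -0.42 with 2 lower.

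Muscle genes were high in few NM MCTs. All 16 tested skeletal muscle genes had a negative difference, 2 of them lower at the threshold, with a median of -1.03. Over all genes with 1 symbol 56.2% were negative and 2.53% lower at the threshold. The creatine kinase CKM had 2.34 to 3.54 (median 3.25) in the M MCTs, against 2.92 to 10.2 (median 3.73) in the NM MCTs, and the 2 highest NM values were 10.2 in the Staffordshire Bull Terrier and 9.77 in a Boxer. ACTA1, the skeletal actin, differed by -1.78 ± 0.63 (p = 0.0134). Without the NM MCT of the Staffordshire Bull Terrier, an alternative chosen after seeing the data, the median of the list was -0.52 and 1 gene was lower at the threshold. Leaving out either tumour of that breed removes its only contrast. Of 15 genes of smooth muscle and pericytes 2 were lower, CNN1, the smooth muscle protein calponin 1 (-0.33 ± 0.1, p = 0.0063), and MCAM (-0.38 ± 0.17, p = 0.0392), with a median of -0.33. With age as a covariate 0 of the skeletal and 0 of the smooth muscle genes were lower, with medians of -0.98 and -0.33. The smooth muscle median was -0.19, with 1 gene lower, without the Golden Retriever M MCT, and 0.05 after adjustment for the keratinocyte score.

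Immediate early genes are transcribed within minutes of a growth or stress signal. Of 24 tested, 23 had a negative difference, against 56.2% of all genes, and the median was -0.39. At an unadjusted p under 0.05, 6 were lower, against 2.53% of all genes, and 0 higher. FOS, which pairs with JUN in the factor AP-1, had 3 to 5.33 (median 3.78) in the M MCTs, against 3.48 to 6.54 (median 5.82) in the NM MCTs and differed by -1.45 ± 0.52 (p = 0.0137). JUN had 2.19 to 6.28 (median 2.94) in the M MCTs, against 2.79 to 6.9 (median 5.65) in the NM MCTs, a difference of -1.43 ± 0.67 (p = 0.0491). JUND (-0.59 ± 0.23, p = 0.0231), NR4A1, an orphan nuclear receptor (-0.44 ± 0.17, p = 0.0247), and KLF4 (-0.72 ± 0.32, p = 0.0396) were the others beside EGR1. The mean level of the list was lower in the M MCTs in all 5 breeds and ran from 2.41 to 3.99 in the M MCTs, against 2.88 to 4.32 in the NM MCTs. In the Cross-breeds, the only breed with more than 1 M MCT, the groups were nearly level. The list mean was 3.99, 3.1 and 3.38 in their M MCTs, against 2.88, 4.32 and 3.39 in their NM MCTs. It was lowest in the M MCT of the Whippet, 1 of the arrays with a low correlation. With the array correlation as a covariate the median was -0.2 and 4 genes were lower, and without the 4 arrays of low correlation it was -0.37 with 5 lower, both alternatives chosen after seeing the data. When single tumours or breeds were left out, 2 to 9 genes were lower. The count was 2 without the M or the NM Whippet, since leaving out either removes the same contrast. With the keratinocyte score as a covariate the median was -0.16 and 0 genes were lower, and with age it was -0.42 with 4 lower.

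Of 13 genes of T and NK cells 3 were higher and 0 lower at an unadjusted p under 0.05, against 1.55% of all genes, with a median of 0.1. They were CD3D, the T cell chemokine gene CCL5 (1.07 ± 0.45, p = 0.031) and the cytotoxic granule gene NKG7 (0.28 ± 0.11, p = 0.0261). CCL5 had 1.96 to 5.88 (median 2.6) in the M MCTs, against 1.77 to 2.57 (median 2.27) in the NM MCTs, with the high values in 2 Cross-breed dogs and the Whippet. The defining T cell genes CD4 (0.1 ± 0.1, p = 0.33) and CD8A (0.1 ± 0.13, p = 0.458) did not pass this threshold and lay near the table's median in both groups. Without the Cross-breeds 1 of the 13 genes, and with age as a covariate 0, was higher at the threshold. The list mean exceeded every NM MCT in 5 of the 7 M MCTs.

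Of 10 genes of B and plasma cells 2 were higher, against 1.55% of all genes, and 0 lower, with a median of 0.26. JCHAIN, the joining chain of secreted immunoglobulin, had 1.7 to 4.83 (median 3.07) in the M MCTs, against 1.49 to 2.97 (median 1.91) in the NM MCTs and differed by 1.12 ± 0.4 (p = 0.0131). MS4A1, the B cell antigen CD20, had 1.41 to 3.86 (median 1.89) in the M MCTs, against 1.27 to 1.84 (median 1.47) in the NM MCTs and differed by 0.59 ± 0.26 (p = 0.0375). The high M MCTs of both genes were again those of 2 Cross-breed dogs and the Whippet. With age as a covariate the median of this list was 0.07 and 0 of its genes were higher at the threshold, and without the Cross-breeds it was 0.13 with 0 higher.

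Over all genes with 1 symbol 1.55% were higher at the threshold, the share beside each list count of this paragraph. Macrophage and dendritic cell genes gave 2 higher of 11, ITGAX, the integrin CD11c (0.38 ± 0.17, p = 0.0437), and LYZ, lysozyme (1.58 ± 0.64, p = 0.0268), with a median of 0.2. Without the Cross-breeds 0 were higher and the median was 0.08, and with age as a covariate 1 was higher. LYZ stood at 8.59 in the M MCT of the Golden Retriever, and the other M MCTs lay between 1.75 and 5.12, against 1.7 to 3.57 in the NM MCTs. Of 30 chemokine, interleukin and receptor genes 5 were higher and 0 lower, with a median of 0.11. Beside CSF2RB these were TNF (0.37 ± 0.12, p = 0.00887), CCL4 (0.27 ± 0.1, p = 0.0143), IL2RB, a chain of the interleukin 2 receptor (0.27 ± 0.1, p = 0.0195), and the B cell chemokine gene CXCL13 (0.3 ± 0.14, p = 0.041). Without the Cross-breeds 0 of the 30 genes were higher at the threshold and the median was 0.01, and with age as a covariate 2 were higher and it was 0.0058. Of 22 genes of interferon response and antigen presentation 20 had a positive difference, with a median of 0.17, and 2 were higher at the threshold, the peptide transporter TAP1 (0.49 ± 0.17, p = 0.0128) and the immunoproteasome subunit PSMB9 (0.63 ± 0.29, p = 0.0469). Without the Cross-breeds this median was -0.01 and 0 were higher, and with age as a covariate it was 0.13 with 1 higher. CD274, which encodes the checkpoint ligand PD-L1, was among the 8 genes higher in every breed by the widest margin; it had 1.41 to 3.34 (median 1.91) in the M MCTs, against 1.35 to 1.79 (median 1.52) in the NM MCTs, and differed by 0.52 ± 0.21 (p = 0.0256), or by 0.14 (p = 0.62) with age as a covariate. The integrin ITGAL of lymphocytes (0.38 ± 0.11, p = 0.00285), TRIM34 (0.35 ± 0.09, p = 0.00227), CDK5R1 (0.41 ± 0.11, p = 0.00288), SH3TC2 (0.44 ± 0.13, p = 0.00411), GLCCI1 (0.34 ± 0.13, p = 0.0181), EVI2B and ZKSCAN4 (0.43 ± 0.21, p = 0.0543) were the others.

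**Figure D4:**
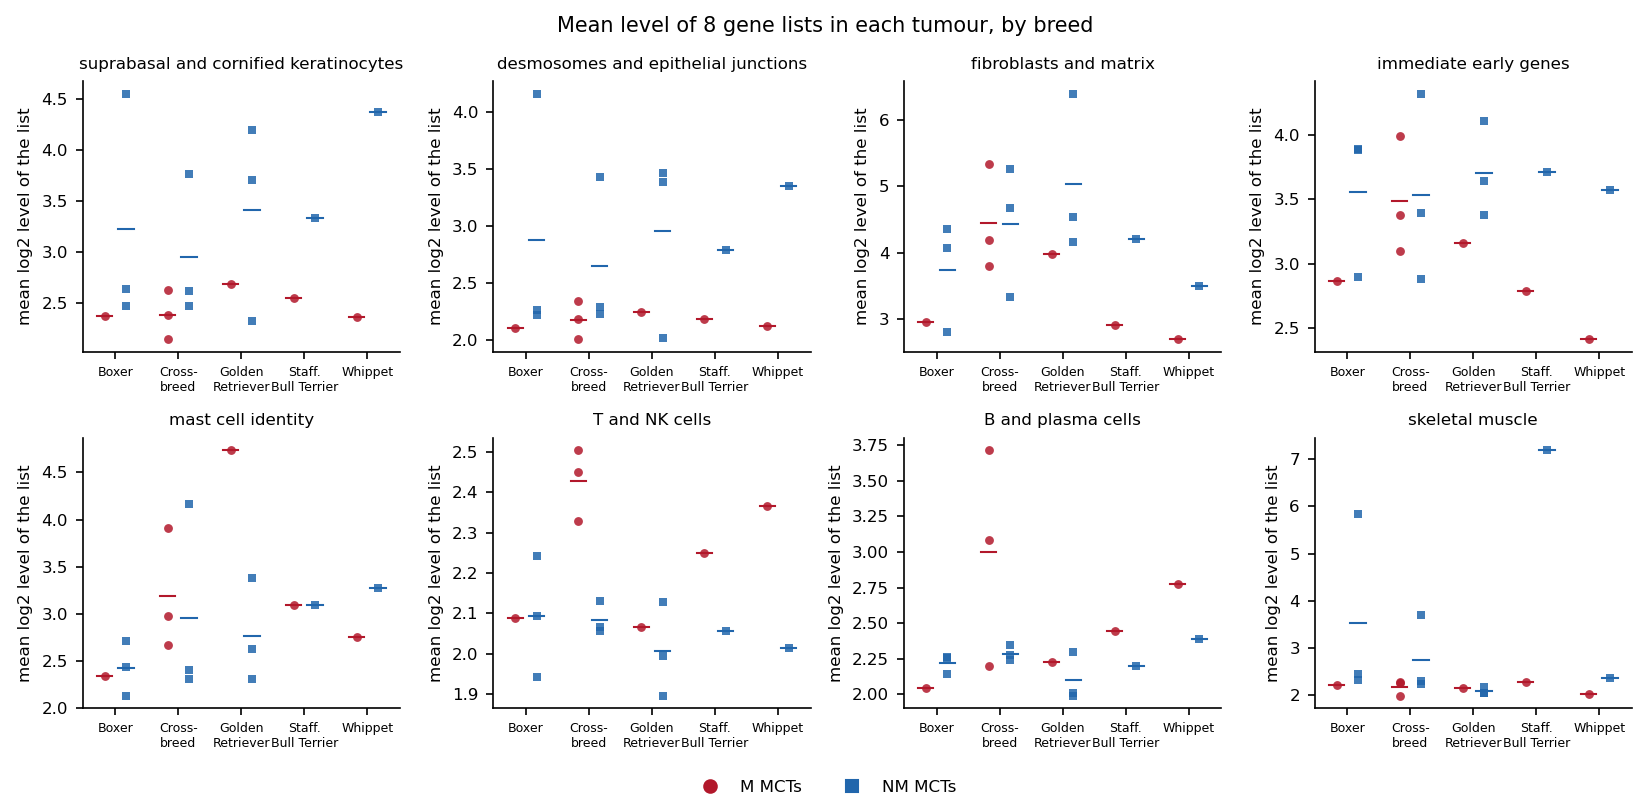
Mean log2 level (vertical axis) of the tested genes of 8 lists in each M MCT (circles) and NM MCT (squares) of the 5 breeds (horizontal axis), with short lines at the means of each breed and group. The keratinocyte and desmosome panels have M MCTs in a narrow low band and 6 NM MCTs above it, the mast cell panel has 1 M MCT of a Golden Retriever at 4.74 above all others, and the skeletal muscle panel has NM MCTs of a Staffordshire Bull Terrier (7.19) and a Boxer (5.83) apart from the rest.

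Mast cell genes had mostly positive differences, and 1 tumour decided their size. Of 19 genes of mast cell identity 16 had a positive difference, with a median of 0.44. Higher at an unadjusted p under 0.05 were 2 of them, against 1.55% of all genes. These were SRGN, serglycin, the proteoglycan core of mast cell granules (0.96 ± 0.38, p = 0.0234), and ALOX5, the lipoxygenase that starts leukotriene synthesis (0.46 ± 0.19, p = 0.0298); leukocytes of other kinds also express both. SRGN had 1.96 to 5.13 (median 3.47) in the M MCTs, against 1.94 to 4.11 (median 2.25) in the NM MCTs, highest in the M MCT of the Golden Retriever. The monoamine transporter SLC18A2 (0.47 ± 0.27, p = 0.11) and the ectoenzyme ENPP3 (0.44 ± 0.21, p = 0.0503) did not pass the threshold, nor did KIT (0.54 ± 0.42, p = 0.212), CPA3 (1.09 ± 0.99, p = 0.288) or the chymase CMA1 (0.67 ± 0.74, p = 0.379). Without the M MCT of the Golden Retriever the median of the list was -0.03, 8 of the 19 differences were positive and 0 genes were higher at the threshold. The mean level of the list was lower in the M MCT or MCTs in 2 of the 5 breeds.

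Of 22 cell cycle genes 2 were higher at the threshold, against 1.55% of all genes, and 0 lower, with a median of 0.09. The higher genes were STMN1, given above, and the ubiquitin-conjugating enzyme gene UBE2C (0.56 ± 0.25, p = 0.0388). MKI67, the proliferation marker Ki-67, had 1.83 to 2.19 (median 1.94) in the M MCTs, against 1.5 to 2.21 (median 1.77) in the NM MCTs, a difference of 0.18 ± 0.11 (p = 0.12). Of 37 genes of the Wnt pathway 28 had a negative difference, 4 were lower and 0 higher, with a median of -0.14. Over all genes 56.2% were negative and 2.53% lower. The mean level of the Wnt list was lower in the M MCTs in all 5 breeds. Without the Golden Retriever M MCT, or without the Cross-breeds, 0 were lower, and with age as a covariate 2. The 4 were the secreted inhibitor SFRP1 (-0.64 ± 0.27, p = 0.029), the receptor FZD1 (-0.43 ± 0.19, p = 0.0384), the coactivator BCL9L (-0.35 ± 0.14, p = 0.0271) and the lipid phosphatase PLPP3 (-0.42 ± 0.18, p = 0.0346). SFRP1 had 1.77 to 2.43 (median 2.18) in the M MCTs, against 2.24 to 4.18 (median 2.6) in the NM MCTs, and 6 of the 7 M MCTs lay below the lowest NM MCT.

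Other cell types of the skin gave few calls. Of 17 endothelial, 11 adipocyte, 10 neutrophil and 4 melanocyte genes 0 passed the unadjusted threshold in either direction, with medians of -0.04, -0.22, -0.17 and -0.18. Of 3 eosinophil genes 1 was higher, the lipoxygenase gene ALOX15 (0.55 ± 0.22, p = 0.026), which had 1.62 to 5.71 (median 2.73) in the M MCTs, against 1.61 to 4.12 (median 2.03) in the NM MCTs. Of 18 heat shock genes 2 were lower, the small heat shock protein gene CRYAB (-0.95 ± 0.34, p = 0.0131) and the regulator HSF1 (-0.4 ± 0.18, p = 0.0442). Of 41 ribosomal protein genes 0 passed the threshold, with a median of -0.24 that ran from -0.64 to 0.17 when single tumours or breeds were left out. Angiogenesis genes and extracellular proteases with their inhibitors gave 0 of 16 and 0 of 24, with medians of -0.16 and -0.03.

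The genes that the study lists as over 2-fold were chosen on tumours that include these 18, so their direction here is no independent evidence. Of 18 with a symbol 15 were identified, all 15 had a negative difference, from -0.89 to -2.94, and 13 were lower at an unadjusted p under 0.05. The 3 left out, KRTAP4-4, PSORS1C2 and SNORD93, include the only gene listed in the opposite direction, SNORD93. The exceptions were JUNB, an immediate early gene (-0.89 ± 0.6, p = 0.159), and KRTAP3-1. CD9, a tetraspanin of cell adhesion, had 2.44 to 3.48 (median 2.69) in the M MCTs, against 2.7 to 5.22 (median 3.79) in the NM MCTs and differed by -0.89 ± 0.32 (p = 0.0159). After adjustment for the keratinocyte score 0 of the 15 were at p under 0.05, and after adjustment for age 5. Of 28 genes from the study's functional groups, which were likewise drawn from genes it called on these tumours, 9 were lower and 0 higher at the threshold, among them STRN, the scaffold striatin (-0.3 ± 0.1, p = 0.012). This count was 0 after adjustment for the keratinocyte score, 5 after adjustment for age and 5 to 13 with a tumour or breed left out.

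Whether the difference was alike in the 5 breeds was asked with an interaction test. It gave 30 clusters at an adjusted p under 0.05 (0.156% of those tested) and 1112 at an unadjusted p under 0.05 (5.78%). The breed farthest from the difference over all breeds was the Whippet for 16 of the 30 clusters, 9 of them with identical values, the Golden Retriever for 7, the Staffordshire Bull Terrier for 4 and the Boxer for 3, and never the Cross-breed, which has 3 M MCTs. Of the 30 clusters 7 had 1 symbol. PDK4, a kinase that slows pyruvate oxidation in muscle, stood at 5.52 in the NM MCT of the Staffordshire Bull Terrier and between 1.54 and 1.98 in the other 17 tumours (interaction, adjusted p = 0.0127). TNNT1, the slow skeletal troponin T, stood at 6.33 in the same tumour and between 1.98 and 2.8 in the others (adjusted p = 0.0235), which is the tumour with the highest skeletal muscle level. PPT1, a lysosomal thioesterase, stood at 6.32 in the M MCT of the Golden Retriever and between 1.4 and 2.57 in the others (adjusted p = 0.0235). MTHFS (4.6), MEAF6 (5.24), FGGY (4.34) and the uncharacterised LOC102155065 (6.69) were likewise highest in that M MCT, with adjusted p-values of 0.0235 to 0.0417. Each of these 7 calls rests on 1 tumour, and the genes were named because they passed the test.

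Labrador Retrievers, with 7 M and 3 NM MCTs, share no tumour with the matched breeds and were used for a comparison of the differences. Of 19246 clusters, 0 had a difference between M and NM that differed between the matched breeds and the Labrador Retrievers at an adjusted limma p under 0.05, and 352 clusters (1.83%) were at an unadjusted p under 0.05. Of the 12 genes lower in the M MCTs with the smallest p, 10 were also lower in M MCTs of Labrador Retrievers, by at most 0.64, and 0 passed the unadjusted threshold there, where 1.16% of all genes with 1 symbol were lower and 0.239% higher at it. The 8 epidermal genes lower in every breed were all lower in Labrador M MCTs too, at -0.41 to -1.45, beside 60.5% of all genes. All of them but CST6 are on the study's over-2-fold list, which was drawn from all tumours of the series. Their direction outside the matched breeds is therefore no independent evidence. All 8 were also lower in the 4 M than in the 2 NM MCTs of the breeds found in 1 group only, beside 60% of all genes. Breed and group cannot be told apart there. Of the 12 lower genes 7 were lower and 5 higher there, and of the 12 higher genes of the matched breeds 4 were higher and 8 lower. Medians there were -0.78 for the suprabasal, -0.49 for the immediate early, 0.44 for the fibroblast and 3.04 for the skeletal muscle list. They were -0.05 for T and NK cells and -0.22 for B and plasma cells. KRT1 differed by -0.41 (p = 0.797) in the Labrador Retrievers, whose M MCTs ran from 1.94 to 8.4 with a median of 2.76, against 3.95 to 5.75 with a median of 4.55 in their NM MCTs.

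Of the 12 genes higher in the M MCTs with the smallest p, 5 were higher and 7 lower in M MCTs of Labrador Retrievers. The difference between the 2 sets of breeds was at an unadjusted p under 0.05 for 6 of these 12 and for 1 of the 12 lower genes. Over all genes with 1 symbol the shares were 1.21% higher and 0.554% lower in the matched breeds. Nothing is read from these counts, since the genes were chosen by their values in the matched breeds. CSF2RB differed by -0.79 in the Labrador Retrievers, 1.8 below the matched breeds (difference 1.8 ± 0.63, p = 0.00932). PTPRC differed by -0.4 there (difference 1.17 ± 0.46, p = 0.0189). H2AC13 stood at 1.3 in the Labrador Retrievers, close to its value in the matched breeds, with p = 0.12. The mast cell list had a median of -0.53 in the Labrador Retrievers, with 17 of 19 differences negative, and the fibroblast list a median of -0.1. The T and NK cell list had a median of -0.0065 there, with 7 of 13 differences negative. The B and plasma cell list had a median of 0.09, with 7 of 10 positive. The genes with the smallest p for this comparison were ZNF511, CHN2, ANKRD13A, SNCG and SYT13 above, and DMAC2, ARHGAP32, TARDBP, PRRG2 and CNN1 below the Labrador difference. ZNF511 differed by 0.11 in the matched breeds and -0.7 in the Labrador Retrievers (difference 0.8 ± 0.24, p = 0.00305), and DMAC2 by -0.34 and 0.29 (difference -0.63 ± 0.19, p = 0.0027).

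**Figure D5:**
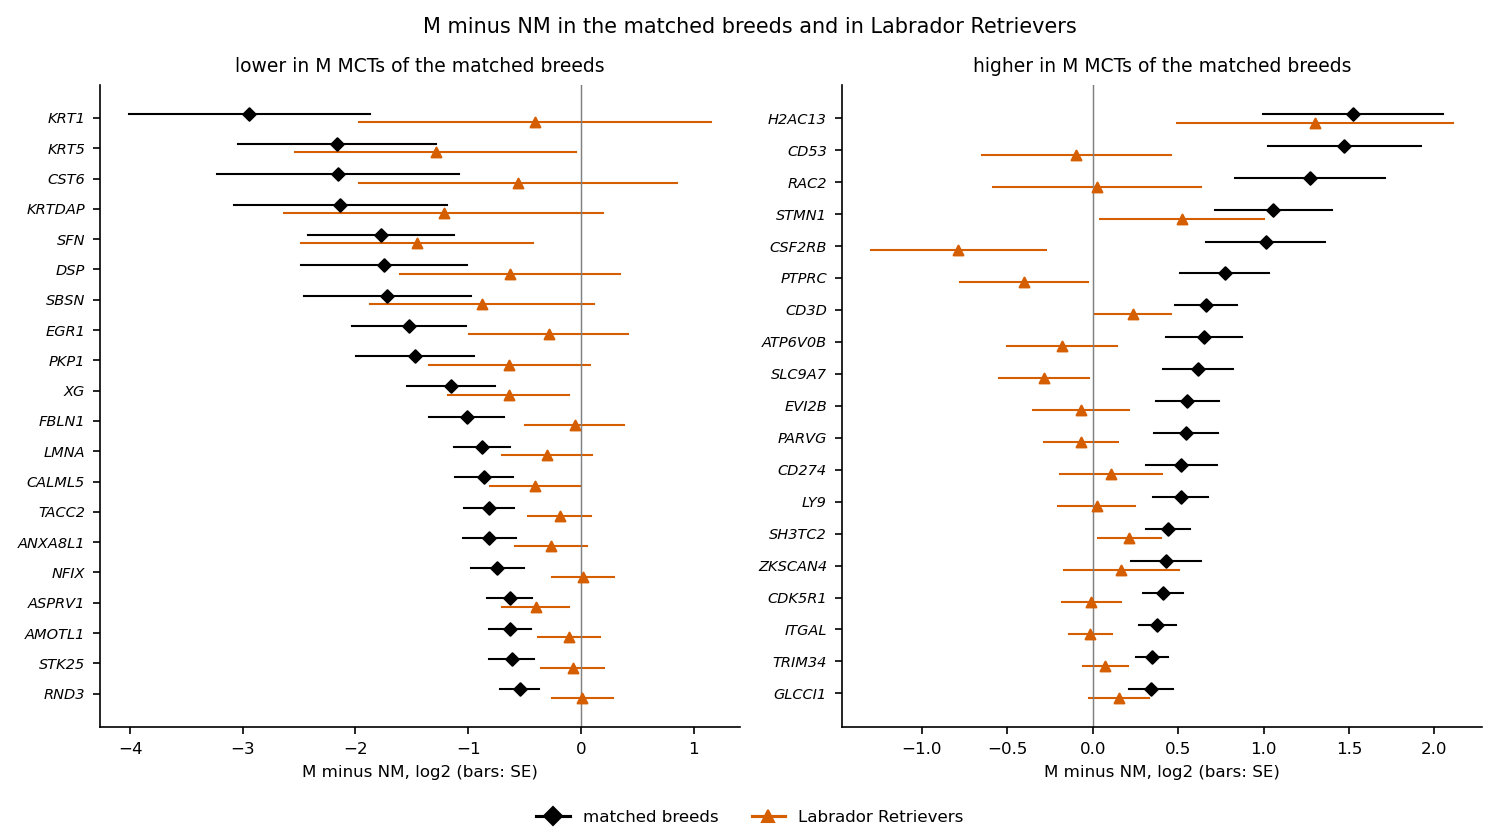
Difference in log2 level between M and NM MCTs (horizontal axis) in the matched breeds (diamonds) and in Labrador Retrievers (triangles), with bars of 1 SE, for genes lower (left) and higher (right) in M MCTs of the matched breeds. On the left nearly all triangles lie between 0 and the diamonds, and on the right they scatter about 0, with CSF2RB at -0.79 and H2AC13 at 1.3 as the extremes.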

How the data were processed

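The 18 tumours come from a series of 34 MCT arrays. Outlier arrays had been dropped by the authors, who processed the rest with the Robust Multichip Analysis of Affymetrix Expression Console 1.3 (background correction, normalisation and summary per Transcript cluster), so the deposited unit is log2 intensity. Groups and breeds came from the labels, and age, sex and neutering from the study's tables of dogs. Clusters above the table's median (1.84) in 30% or more of the 18 M or of the 16 NM MCTs were tested, 19246 of 32391. Differences (M minus NM) were fitted with limma 3.58.1 in R 4.3.3 with breed as a fixed block and 12 residual degrees of freedom, with Benjamini-Hochberg adjustment. The few arrays limit the precision. Array batches are not given in the sources used here. Symbols from the platform annotation, of 16878 clusters, were updated through the RefSeq gene numbers for 16663. Where clusters shared a symbol, the one of highest mean level stands for the gene.

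Named genes are the 12 per direction with the smallest p and a difference of at least 0.5, the 8 per direction with the same sign in all 5 breeds and the largest smallest difference, up to 4 members with the smallest p of each list described (further members are named where a list's count is given), the study's over-2-fold genes and the 5 per direction that differed most from Labrador Retrievers. The breeds, lists and rules were chosen with earlier results of these data known. Alternatives covered blocks, covariates, level filters, variance models, the methods' t-test, array weights, normalisation and each tumour or breed left out. Breeds found in 1 group only entered no fit of the main comparison.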

Additional observations from a re-analysis of the deposited data

Results flagged for a closer look

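Among 110 measures of the 7 M MCTs, 6 had 1 tumour far from the others, where chance flags about 1 in 20 groups. The oldest dog with an M MCT, a Cross-breed, was 15 years old and the next 11. The same tumour was highest for CD274, at 3.34 with the next M MCT at 2.23, and for LY9, at 3.94 with the next at 2.91. The M MCT of the Golden Retriever was highest for KRT10, at 5.03 with the next at 2.85, and for PARVG, at 3.56 with the next at 2.59. NR4A1 was lowest in the M MCT of the Whippet, at 1.73 with the next at 2.4.

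The difference between M and NM MCTs differed among the 5 breeds, by limma's interaction test adjusted over all clusters, for 7 genes with 1 symbol. The adjusted p was 0.0127 for PDK4, 0.0235 for PPT1, MTHFS and TNNT1, 0.0347 for LOC102155065, 0.0371 for MEAF6 and 0.0417 for FGGY. PDK4 and TNNT1 stood apart in the NM MCT of the Staffordshire Bull Terrier and the other 5 in the M MCT of the Golden Retriever.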

How the results depend on the processing

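No cluster passed the adjusted test under any alternative, and the unadjusted counts moved. Against 384 lower and 324 higher clusters, there were 238 and 129 with the level filter at the 75th percentile, which tests fewer clusters, and 805 and 513 with array weights. The methods' t-test without a block gave 398 lower and 439 higher, and 0 after Benjamini-Hochberg adjustment. Lower clusters numbered 610 with neutering, 252 with the keratinocyte score and 233 without the 4 arrays of low correlation, the last chosen after seeing the data. Higher clusters numbered 194 with age and sex, 720 with no level filter and 185 over clusters with 1 symbol. Leaving out a tumour or breed gave 245 to 590 lower (245 without M replicate 1, a Boxer, and 590 without NM replicate 8, a Golden Retriever) and 258 to 418 higher clusters. Interaction calls numbered 14 at the stricter filter and 19 with quantile normalisation repeated, against 30, and unadjusted ones 547 at that filter, against 1112. The comparison with Labrador Retrievers gave 117 unadjusted clusters at that filter, against 352. The age difference was 3.46 years without the Boxers and 3.36 to 4.3 over all breeds left out. Share of variation ran from 2.33% to 8%. Of 108 named genes, 82 had an unadjusted p under 0.05, 28 of them in every fit with a tumour or breed left out. With the keratinocyte score CST6 stood at 0.24 and KRTAP3-1 at 0.041; the cause was not tested.

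Replicate numbers mark different dogs in the 2 groups, and the deviations of same-numbered tumours correlated at -0.44, -0.43, 0.46 and -0.45, so they pair nothing. The fit with the replicate block gave 183 lower and 186 higher clusters on fewer pairs, and turned the sign of LMNA (0.020), FBLN1 (0.043), SNCG (-0.052), TAGLN (0.26), MKI67 (-0.090), JUND (0.14) and JUNB (0.60).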
